A study of Mus musculus with 6 samples.

Results

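Positional and lineage transcription factors are DNA-binding proteins whose genes stay active in mesenchymal cells as a record of where in the embryo the cells arose and which lineage they joined. The genes were selected by name and by function, as factors of the splanchnic mesoderm and the mesothelium, with their values in these libraries already known: 10 of the 49671 genes in each count table. They are Barx1, Isl1, Tcf21, Gata4, Gata6, Wt1, Tbx3, Tbx18, Meox1 and Nr2f1. Their difference between the sorted fractions is therefore given as a description, with no p-value of their own. How many of them passed the threshold set for the whole table is counted beside the share of all genes that did. The closing section counts them again in other settings, beside the numbers over all genes.

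The RNA came from cells sorted out of tumours grown in the mouse pancreas. C57BL/6J hosts received FC1199 cells, which derive from a mouse pancreatic cancer, in that organ at 8 weeks of age, and tumours were taken 4 weeks later, at 12 weeks of age. Every host carried both Rosa-mTmG, a reporter that turns from red Tomato to green GFP after Cre has acted, and Fabp4-Cre, so the fractions share genotype, strain, treatment and age and are told apart by reporter colour. Podoplanin-positive cells were sorted into a GFP fraction, labelled as fibroblasts derived from stellate cells, and a Tomato fraction, labelled as fibroblasts of other origin, with 3 libraries of each. As a model the colour reports that the Fabp4 promoter, known from fat cells and also active in macrophages and endothelium, drove Cre at some time in a cell's history, not the cell's present state. Nothing in the labels tells whether different animals gave the 3 libraries of a fraction, and p-values therefore measure only the spread between these samples.

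The library totals ran from 33378377 to 42154933 counts. Pdpn, the gene of the sorted surface protein, averaged 404 ± 35.5 CPM in GFP and 433 ± 19.6 CPM in Tomato (SD, n = 3 each), where CPM stands for the counts scaled to a common library size. Fabp4 averaged 17.1 ± 1.56 CPM in GFP and 18.2 ± 0.907 CPM in Tomato. The sums of fibroblast markers, led by Col3a1, were 129736 to 144417 CPM in GFP and 63497 to 96497 CPM in Tomato. Of the stellate cell markers, 2 were higher and 2 lower in GFP (edgeR, adjusted p under 0.05).

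As background, splanchnic mesoderm is the layer of mesoderm that wraps the embryonic gut and gives rise to the mesenchyme of the stomach, pancreas and spleen. The mesothelium is the epithelium that covers these organs, and cells that leave it can become fibroblasts or stellate cells. Homeodomain proteins such as Barx1 and Isl1, zinc finger proteins of the GATA and WT1 families, T-box proteins, the basic helix-loop-helix protein Tcf21 and the nuclear receptor Nr2f1 mark different districts of this tissue.

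Promoter sequences were found in RefSeq for Barx1, Isl1, Tcf21, Tbx18 and Nr2f1, which is 5 of the 10 genes. Wt1, Gata4, Tbx3 and Meox1 had no entry. Gata6 was left out of the search, so nothing is said on whether it has an entry. Those of Barx1 and Isl1 are shown because each of these genes was among the 3 protein-coding genes whose profile over the libraries was nearest to the other's, and that of Tcf21 because its level differed little between the fractions. Each runs 5′ to 3′ on the strand of its gene, from 250 bases before to 50 bases after the annotated start, in build GRCm38.p6. Barx1 is at chr13:48662786-48663085 on the plus strand, Isl1 at chr13:116309639-116309938 on the minus strand, and Tcf21 at chr10:22820094-22820393 on the minus strand. Capitals mark matches, on either strand, to AGATAA, letters of a GATA factor motif, and to CAGCTG, an E-box of the kind bound by basic helix-loop-helix proteins.
Barx1: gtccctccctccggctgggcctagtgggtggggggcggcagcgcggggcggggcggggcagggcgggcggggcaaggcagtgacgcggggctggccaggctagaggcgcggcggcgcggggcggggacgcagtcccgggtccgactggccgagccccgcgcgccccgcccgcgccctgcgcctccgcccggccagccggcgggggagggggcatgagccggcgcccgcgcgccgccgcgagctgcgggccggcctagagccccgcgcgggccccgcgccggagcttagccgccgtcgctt
Isl1: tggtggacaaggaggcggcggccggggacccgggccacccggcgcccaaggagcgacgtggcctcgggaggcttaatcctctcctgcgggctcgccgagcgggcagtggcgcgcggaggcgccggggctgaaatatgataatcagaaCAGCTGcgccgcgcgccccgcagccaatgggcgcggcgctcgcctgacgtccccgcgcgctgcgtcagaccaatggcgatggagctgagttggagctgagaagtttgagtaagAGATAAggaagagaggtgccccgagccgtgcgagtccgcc
Tcf21: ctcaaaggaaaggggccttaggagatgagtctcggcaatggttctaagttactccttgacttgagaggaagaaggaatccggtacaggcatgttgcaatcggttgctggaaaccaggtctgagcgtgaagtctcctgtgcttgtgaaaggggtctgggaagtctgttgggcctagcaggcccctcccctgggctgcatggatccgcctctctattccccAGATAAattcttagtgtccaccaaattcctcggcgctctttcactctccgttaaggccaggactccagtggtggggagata

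The Barx1 promoter held 84.7% G and C and 50 CG dinucleotides, the Isl1 promoter 69.0% and 37, and the Tcf21 promoter 53.3% and 8. The medians over all 32851 RefSeq promoters were 52.7% and 7. AGATAA began at position 10 relative to the Isl1 start and at -31 relative to the Tcf21 start, and 11.2% of all promoters hold it. CAGCTG began at -103 in Isl1, and 16.3% of all promoters hold it. TAATTA (homeodomain proteins, in 5.29% of promoters), AGGTCA (nuclear receptors, 16.3%), GGTGTG (T-box proteins, 19.0%) and GCGGGGGCG (WT1-type zinc fingers, 2.91%) were not found in the windows of these 5 genes, of which Nr2f1 has 2 starts. These are matches of letters, not measured binding, and the motifs searched do not overlap one another in these windows.

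**Figure D1:**
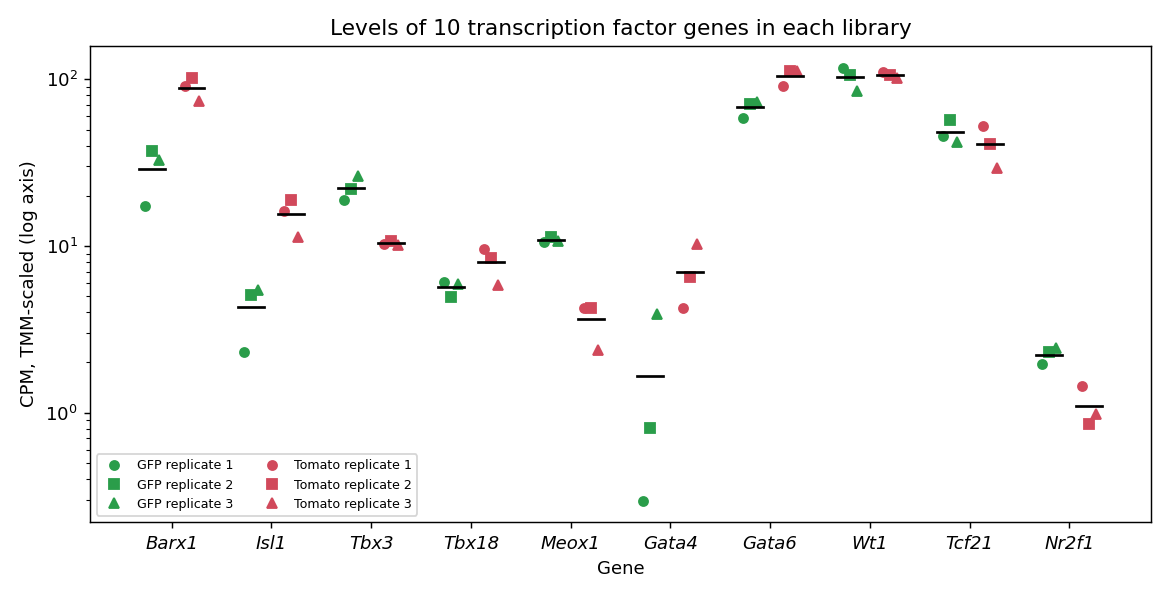
Each point is 1 library (green, 3 GFP libraries; red, 3 Tomato libraries; marker shape gives the replicate number) and each black bar the mean, in TMM-scaled CPM on a log axis, for the 10 genes. The Barx1 libraries of GFP lie between 17.4 and 36.9 CPM, below all those of Tomato, while the Wt1 libraries of both fractions lie together between 85.6 and 118 CPM.

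Barx1 and Isl1 were both lower in GFP. Barx1, a homeobox gene needed for stomach and spleen mesenchyme in the mouse (chromosome 13, 48662998 to 48666507, plus strand), had 17.4, 36.9 and 32.6 CPM in the GFP libraries, against 90.8, 101 and 73.9 CPM in the Tomato libraries. Its fractions do not overlap, and GFP replicate 1 is the lowest library. The mean was 29.0 ± 10.2 CPM in GFP and 88.7 ± 13.8 CPM in Tomato (SD, n = 3 each), so GFP had 32.7% of the Tomato mean, a log2 fold change of -1.62 ± 0.27 (SE). Isl1, a LIM homeobox gene active in pancreatic mesenchyme, islet cells and motor neurons (chromosome 13, 116298281 to 116309689, minus strand), had 2.32, 5.07 and 5.47 CPM in GFP, against 16.2, 18.9 and 11.3 CPM in Tomato. Its fractions do not overlap either, and GFP replicate 1 is again lowest. The fold change was -1.86 ± 0.33 on the log2 scale, which leaves 27.7% of the Tomato mean. Markers of islet cells, which also express Isl1, summed to 0.808 to 1.86 CPM in GFP and 0.886 to 5.13 CPM in Tomato, with Neurod1 at 0 in every library, and neuron markers, led by Stmn2, to 29.0 to 45.7 CPM in GFP and 40.7 to 57.4 CPM in Tomato. In bulk samples, fewer cells of a type and less RNA per cell cannot be told apart.

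The GATA genes were lower in GFP to unlike degrees. Gata6, which encodes a zinc finger factor of endoderm and lateral mesoderm (chromosome 18, 11052064 to 11085635, plus strand), had 59.0, 71.2 and 73.6 CPM in GFP, against 91.3, 112 and 112 CPM in Tomato. The fractions do not overlap, and the log2 fold change was -0.63 ± 0.12, which leaves 64.6% of the Tomato mean. Gata4, a factor of septum transversum mesenchyme and hepatic stellate cells in the mouse (chromosome 14, 63198922 to 63271692, minus strand), had 0.296, 0.806 and 3.89 CPM in GFP, against 4.27, 6.54 and 10.2 CPM in Tomato. GFP replicate 3 stands 13.1-fold above GFP replicate 1, and the fractions just miss each other. The log2 fold change was -2.07 ± 0.79 with all libraries and -3.68 without GFP replicate 3, so 1 library decides its size. In counts, Gata4 rests on 11, 27 and 138 reads in GFP and 183, 254 and 377 in Tomato.

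Tbx3, Meox1 and Nr2f1 were higher in GFP. Tbx3, a T-box repressor of limb and heart development (chromosome 5, 119670669 to 119684724, plus strand), had 18.8, 22.0 and 26.5 CPM in GFP, against 10.3, 10.7 and 10.1 CPM in Tomato. All GFP libraries are above all Tomato libraries, which lie close together, and the log2 fold change was 1.11 ± 0.14. Meox1, a homeobox gene of the somites that is switched on in activated heart fibroblasts of the mouse (chromosome 11, 101877510 to 101894374, minus strand), had 10.6, 11.3 and 10.7 CPM in GFP, against 4.27, 4.22 and 2.39 CPM in Tomato. It varied least in GFP, where the highest library was 1.07 times the lowest, and its fold change was 1.58 ± 0.21 on the log2 scale. Nr2f1, an orphan nuclear receptor of nervous system and mesoderm (chromosome 13, 78188973 to 78199757, minus strand), had 1.97, 2.30 and 2.42 CPM in GFP, against 1.45, 0.849 and 0.978 CPM in Tomato. The log2 fold change was 1.02 ± 0.26, on 73, 77 and 86 reads in GFP and 62, 33 and 36 in Tomato.

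For Wt1, Tcf21 and Tbx18 the libraries of the fractions overlap. Wt1, a zinc finger gene of mesothelium, kidney and gonad (chromosome 2, 105126529 to 105173616, plus strand), had 118, 106 and 85.6 CPM in GFP, against 110, 106 and 101 CPM in Tomato. Its log2 fold change of -0.03 ± 0.12 took the opposite sign in 3 of 17 other settings, whose range was -0.20 to 0.10. Tcf21, a basic helix-loop-helix gene of lung, kidney and spleen mesenchyme (chromosome 10, 22817281 to 22820174, minus strand), had 45.8, 56.9 and 42.0 CPM in GFP, against 52.2, 40.9 and 29.4 CPM in Tomato, a log2 fold change of 0.24 ± 0.21. Over the 17 other settings the Tcf21 value ran from 0.04 to 0.60. Tbx18, a T-box gene of epicardium and mural cells (chromosome 9, 87702800 to 87731260, minus strand), had 6.06, 4.95 and 5.95 CPM in GFP, against 9.63, 8.52 and 5.84 CPM in Tomato. Tomato replicate 3 lies inside the GFP range, and the log2 fold change was -0.50 ± 0.20.

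**Figure D2:**
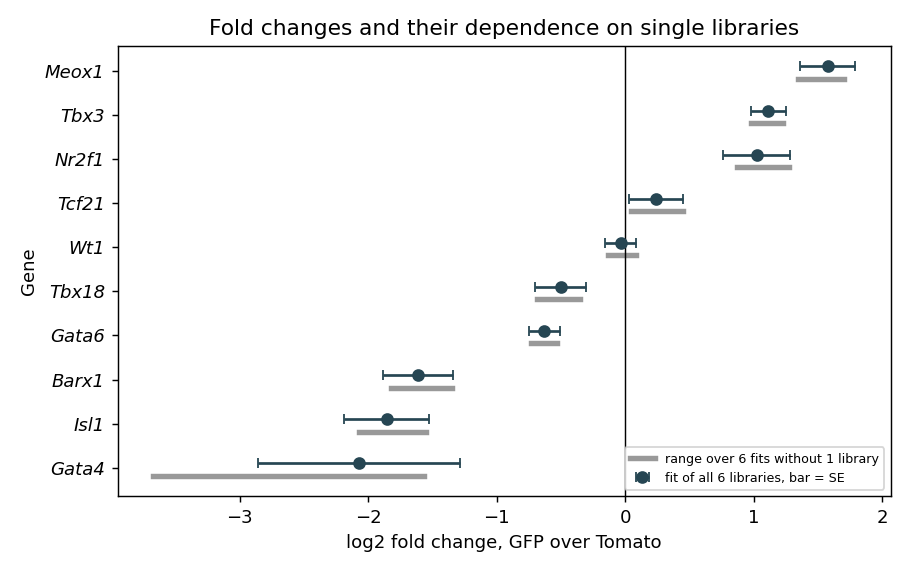
For each gene the point is the log2 fold change of GFP over Tomato from all 6 libraries with its SE, and the grey bar the range over the 6 fits that each leave out 1 library. Gata4 has the widest range, -3.68 to -1.57, and Wt1 lies on both sides of 0.

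All 10 genes passed the filter on low counts. By the threshold used for the whole table (edgeR's quasi-likelihood test, Benjamini-Hochberg adjusted p under 0.05), 3 genes were higher, against 13.1% of all genes tested, and 3 were lower, against 15.7%. Those 6 of 10 stand beside 28.9% of the 15608 genes tested in either direction, and nothing is read from this because the same contrast was known when the genes were selected. Gata4 was not among the 3 that were lower. The libraries of the fractions do not overlap for 7 of 10, with GFP higher for 3 and lower for 4, beside 48.6% of all genes tested. The median log2 fold change was -0.27 over the 10 genes and 0.00 over all genes tested. Across all genes, 2049 were higher and 2456 lower. Scaled by library size alone this split was 1128 and 3851, and with offsets for transcript length and GC content 2961 and 1558. These scalings moved the median of all genes to -0.16 and 0.13, and of the 10 genes Wt1 alone changed sign in any setting tried.

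Levels can be compared between genes only per length, here as CPM per kb of merged exons. In GFP the order of mean levels was Barx1 (20.7 CPM per kb), Tcf21 (20.5), Wt1 (16.6), Gata6 (10.4), Meox1 (4.87), Tbx3 (3.39), Tbx18 (1.20), Isl1 (1.08), Nr2f1 (0.438) and Gata4 (0.426). The ranges of Barx1 and Tcf21, of Tcf21 and Wt1, of Tbx18 and Isl1, and of Nr2f1 and Gata4 overlap. In Tomato it was Barx1 (63.4 CPM per kb), Tcf21 (17.4), Wt1 (17.0), Gata6 (16.1), Isl1 (3.91), Gata4 (1.80), Tbx18 (1.70), Meox1 (1.63), Tbx3 (1.56) and Nr2f1 (0.214). There the neighbours from Tcf21 to Gata6 and from Gata4 to Tbx3 overlap. Per kb of merged exons Barx1 thus had the highest mean of these genes in each fraction, and in GFP its range overlaps that of Tcf21. The order depends on the length used. Merged exons span 6195 bases for Wt1 and its longest transcript 3090, while both lengths are 1399 for Barx1. With the longest transcript as the length, the means of Wt1 and Tcf21 lie above that of Barx1 in GFP, and Barx1 still leads in Tomato. By that length 12 of the 20 levels moved by more than the spread between replicates.

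**Figure D3:**
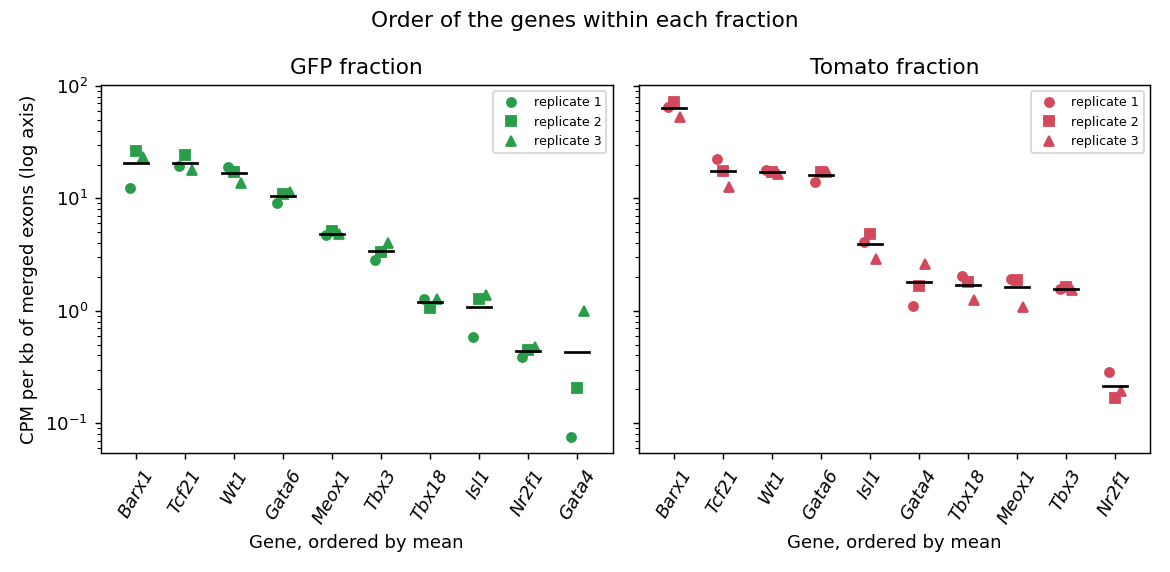
CPM per kb of merged exons on a log axis for the 10 genes, ordered by their mean within the GFP fraction (left) and the Tomato fraction (right), with 1 point per library and a bar at the mean. Barx1 leads in both panels, at 20.7 in GFP and 63.4 in Tomato.

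Between libraries of a fraction most of these genes varied more than the median gene. The median SD of log2 CPM was 0.23 over the 10 genes in GFP, where all genes tested had 0.16 and 8 of the 10 lay above that. In Tomato it was 0.38, where all genes had 0.18 and 7 lay above. Gata4, Isl1 and Barx1 varied most in GFP, with a highest library 13.1, 2.36 and 2.12 times the lowest.

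Markers of other cells differed between the fractions beside these genes. The 12 mesothelial markers, led by Msln, were all lower in GFP (edgeR), and summed to 114, 169 and 184 CPM in GFP and to 1703, 1861 and 1402 CPM in Tomato, so the GFP mean was 9.42% of the Tomato mean. Barx1, Isl1, Gata4 and Gata6 share with this sum the lowest value in GFP replicate 1, and so do Tbx3, Meox1 and Nr2f1, which were higher in GFP. Barx1 and Isl1 share with it the lowest Tomato value in replicate 3, and so do Wt1, Tcf21, Tbx3, Tbx18 and Meox1. The 10 macrophage markers, led by Cd14, were also all lower, at 66.3, 92.7 and 114 CPM in GFP and 442, 749 and 1111 CPM in Tomato. Gata4 and Gata6 took the same order of libraries as that sum within each fraction. Gata6 was nearly equal in Tomato replicates 2 and 3 (111.85 and 112.06 CPM), and in GFP the mesothelial sum took the same order. The part of these cells in the results was not tested. Wt1, itself a mesothelial gene, had 103 ± 16.2 CPM in GFP and 106 ± 4.35 CPM in Tomato beside this difference in the marker sum. Mesothelial and lymphatic endothelial cells also carry Podoplanin, the protein of the sort.

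**Figure D4:**
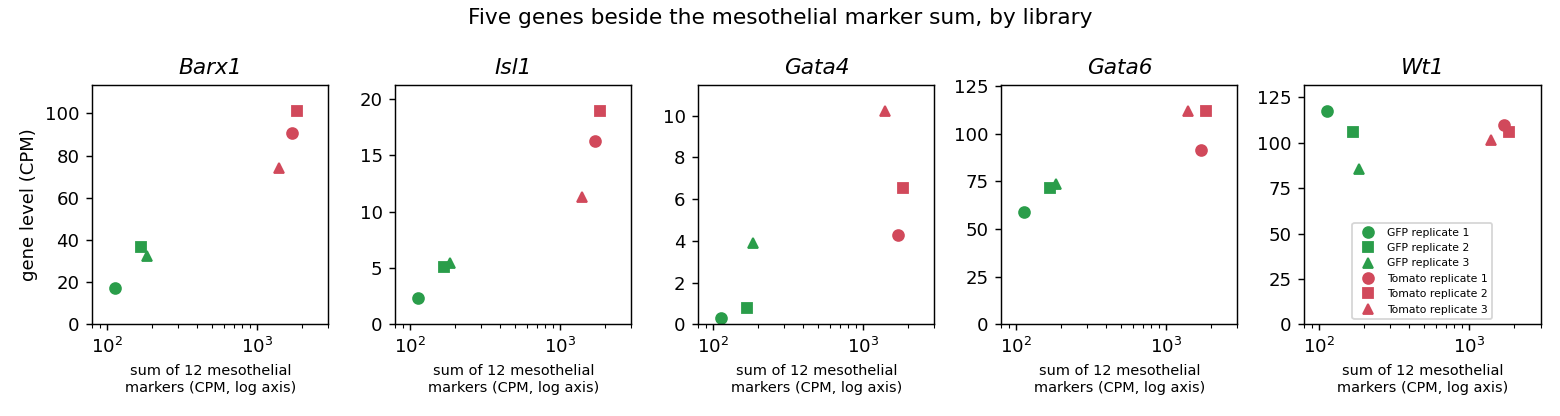
The level of Barx1, Isl1, Gata4, Gata6 and Wt1 (CPM) against the sum of 12 mesothelial markers (CPM, log axis), 1 point per library, green for GFP and red for Tomato. The marker sum is 114 to 184 CPM in GFP and 1402 to 1861 CPM in Tomato, and Wt1 spans 85.6 to 118 CPM across both.

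Other markers moved the opposite way or less. Lymphatic endothelial markers, led by Mmrn1, summed to 309 to 493 CPM in GFP and 22.2 to 77.6 CPM in Tomato, with all 5 tested higher and Ccl21a at 0 in every library. Blood endothelial markers, led by Kdr, summed to 132 to 190 CPM in GFP and 66.2 to 92.9 CPM in Tomato, with 5 of 8 higher. Epithelial and cancer cell markers, led by Krt8, summed to 101 to 124 CPM in GFP and 431 to 513 CPM in Tomato, with 5 of 8 lower. In Tomato the keratin genes Krt8, Krt18 and Krt7 averaged 171, 133 and 82.1 CPM, while Epcam and Cdh1 averaged 12.3 and 11.9 CPM. Another keratin gene, Krt19, is among the mesothelial markers above. All of these but Krt8 were chosen after their values were seen. Pericyte and muscle markers, led by Des, summed to 132 to 194 CPM in GFP and 143 to 230 CPM in Tomato, with 3 higher and 1 lower. Acinar markers, led by Prss2, summed to 102 to 362 CPM in GFP and 336 to 673 CPM in Tomato, and none of 6 passed the test. Schwann cell markers, led by S100b, summed to 3.04 to 3.90 CPM in GFP and 3.64 to 6.30 CPM in Tomato, with Foxd3 at 0. Their part in the values of Tbx3, Meox1 and Nr2f1, the genes higher in GFP, was not tested.

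Genes of the same network that were not members were tested in the fit of all genes, and 116 were listed, of which 89 could be tested. Of these, 33 rose in GFP (37.1%, against 13.1% of all genes) and 13 fell (14.6%, against 15.7%), with a median log2 fold change of 0.33. The lists, like the members, were chosen with earlier results of these data known, so nothing is read from the shares of any list. The number higher was 19 without GFP replicate 1 or without Tomato replicate 2 and 21 without GFP replicate 2, and the number lower was 8 without Tomato replicate 2. Of the 29 mesenchymal factors tested, 18 rose (62.1%, against 13.1% of all genes) and 1 fell (3.45%, against 15.7%), with a median of 0.55. Without GFP replicate 1, and likewise without Tomato replicate 2, 10 were higher, and without Tomato replicate 1, 2 were lower. Msx1, a homeobox gene of limb and craniofacial mesenchyme, rose by 0.98 ± 0.14 (adjusted p = 0.00172), Runx2, the osteoblast factor, by 0.78 ± 0.14 (adjusted p = 0.00459) and Prrx1, a paired-type homeobox gene of fibroblasts, by 0.78 ± 0.14 (adjusted p = 0.00525). Prrx1 was chosen after its values were seen. The 1 that fell, Sox6, a chondrocyte and muscle factor, averaged 0.736 CPM in GFP and 6.94 CPM in Tomato, a change of -3.23 ± 0.32 (adjusted p = 0.00036).

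Of the 19 splanchnic factors tested, 6 rose (31.6%, against 13.1% of all genes) and 4 fell (21.1%, against 15.7%), with a median of 0.33. Without GFP replicate 2 or without Tomato replicate 2, 3 were higher, and without Tomato replicate 2, 2 were lower. Hand2, a basic helix-loop-helix factor of gut and heart mesoderm, rose by 0.70 ± 0.11 (adjusted p = 0.00279). Nkx2-3, a homeobox gene of gut and spleen mesenchyme, rose by 1.38 ± 0.22 (adjusted p = 0.00435). Gata5, a relative of Gata4 and Gata6, fell, with a log2 fold change of -3.62 ± 0.40 (adjusted p = 0.000931). Bnc1, which is also among the mesothelial markers, had -4.77 ± 0.54 (adjusted p = 0.0014). Foxf1, the forkhead factor of gut mesoderm, chosen after its values were seen, fell by 1.22 ± 0.27 (adjusted p = 0.0146), and its call was lost without Tomato replicate 2 (adjusted p = 0.0504). Osr2, chosen in the same way, rose by 1.22 ± 0.24 (adjusted p = 0.0106), and this was lost when no filter was used (adjusted p = 0.0565).

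Relatives of the members by sequence moved in both directions, with a median of 0.34. Of 14 tested, 4 were higher (28.6%, against 13.1% of all genes) and 3 lower (21.4%, against 15.7%). Tbx1, a T-box gene of pharyngeal mesoderm and lymphatic endothelium, averaged 9.04 CPM in GFP and 0.770 CPM in Tomato, a rise of 3.54 ± 0.26 (adjusted p = 0.000103), beside the lymphatic markers above, whose part was not tested. Tbx2, the closest relative of Tbx3, averaged 33.7 CPM in GFP and 16.9 CPM in Tomato, a rise of 0.999 ± 0.172 (adjusted p = 0.00465), beside 1.11 for Tbx3. Gata3 averaged 0.226 CPM in GFP and 0.877 CPM in Tomato, a change of -1.93 ± 0.38 (adjusted p = 0.00828). Nr2f2, the relative of Nr2f1, chosen after its values were seen, rose by 0.67 ± 0.15 (adjusted p = 0.015), which was lost without GFP replicate 2 or Tomato replicate 2 (adjusted p up to 0.0571). Meox2, the relative of Meox1, chosen likewise, had 0.33 ± 0.25 and did not pass (adjusted p = 0.34), though it did in 1 of 17 settings, with length and GC offsets and the replicate block together (adjusted p = 0.049).

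Of the 22 cofactors tested, 4 rose (18.2%, against 13.1% of all genes) and 4 fell (18.2%, against 15.7%), with a median of 0.06. These counts depend on the setting. The number higher was 1 when GFP replicate 1 or 2 or Tomato replicate 2 was left out, 7 without Tomato replicate 1 and 7 with DESeq2. The number lower was 2 without GFP replicate 1 or Tomato replicate 2. Tcf4, a partner of tissue-specific basic helix-loop-helix proteins, rose by 0.89 ± 0.10 (adjusted p = 0.000748). Tcf3, a like partner, rose by 0.38 ± 0.10 (adjusted p = 0.0214) and lost its call in 5 of 17 settings, among them those without GFP replicate 1, 2 or 3 or Tomato replicate 2 (adjusted p up to 0.0942). Pawr, whose protein binds WT1, fell by 1.09 ± 0.13 (adjusted p = 0.000965), and Id1, an inhibitor of basic helix-loop-helix proteins, had -0.82 ± 0.13 (adjusted p = 0.00339). Of 8 genes known from mouse work as linked to these factors, Sfrp1 and Sfrp2, secreted Wnt inhibitors downstream of Barx1 in the stomach, rose by 1.14 ± 0.14 (adjusted p = 0.00106) and 1.20 ± 0.23 (adjusted p = 0.0072), while Barx1 itself was lower. Amhr2, a WT1 target in the gonad, fell by 2.16 ± 0.37 (adjusted p = 0.00526). Podxl, a WT1 target in the kidney, had -0.74 ± 0.17 (adjusted p = 0.0144), which was lost without GFP replicate 2 or 3 or Tomato replicate 2 (adjusted p up to 0.0589). Then 1 of these 8 was lower in place of 2 (25%, against 15.7% of all genes).

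Genes within 10 kb of the members were 16 in number, of which 13 were in the count tables and 5 could be tested. 1010001N08Rik, an antisense transcript that shares 93 exon bases with Gata6 (chromosome 18, 10987944 to 11052567), had 29, 32 and 44 reads in GFP, against 150, 131 and 190 in Tomato. Its log2 fold change was -2.01 ± 0.27 (adjusted p = 0.0014), beside -0.63 for Gata6, a difference that was not tested, and the call was kept in all 17 settings. Wt1os, which starts 19 bases from Wt1 on the opposite strand (chromosome 2, 105076538 to 105126510), had 119, 155 and 88 reads in GFP, against 233, 265 and 216 in Tomato. Its change was -0.81 ± 0.23 (adjusted p = 0.0324), and the call was lost in 5 settings, among them those without GFP replicate 1 or 3 or Tomato replicate 2 (adjusted p up to 0.112).

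A830082K12Rik, antisense to Nr2f1 with 123 shared exon bases (chromosome 13, 78198017 to 78279391), had 194, 183 and 199 reads in GFP, against 141, 141 and 134 in Tomato. It was higher by 0.63 ± 0.15 (adjusted p = 0.0161), as Nr2f1 was, and lost its call without GFP replicate 3 or Tomato replicate 2 and when scaled by library size alone (adjusted p up to 0.0582). Gm27308, 1075 bases from Wt1, had -0.02 ± 0.36 (adjusted p = 0.976) and D030062O11Rik, antisense to Tbx18 with 970 shared exon bases, 0.52 ± 0.32 (adjusted p = 0.235). For 4 members an antisense gene shares exon bases, and the strand columns hold nearly equal counts, so reads there cannot be told apart by strand. Reads that appear only in the strand columns, which measure this ambiguity, were 252 (13.9%) for Tbx18, 43 (10.5%) for Nr2f1, 110 (2.96%) for Tbx3 and 52 (0.265%) for Gata6. Tbx3os1, antisense to Tbx3 with 115 shared exon bases, had 16 reads in the column for both strands, against 68 and 58 in the strand columns.

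**Figure D5:**
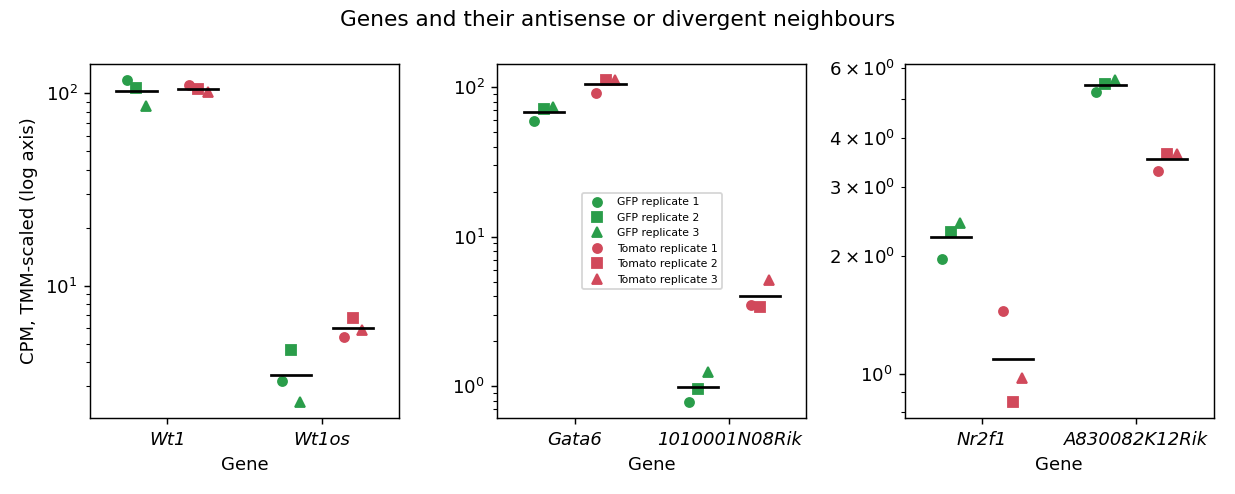
Levels (CPM, log axis) of Wt1, Gata6 and Nr2f1 beside their neighbours Wt1os, 1010001N08Rik and A830082K12Rik, with 1 point per library and a bar at the mean, green for GFP and red for Tomato. Wt1os is lower in GFP, at a mean of 3.44 CPM against 6.04 CPM in Tomato, while Wt1 has means of 103 CPM in GFP and 106 CPM in Tomato.

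Likeness of profile was measured as the root mean square difference of mean-centred log2 CPM over 6 libraries, among 13904 protein-coding genes, and is given as a description. Nearest to Barx1 were Bmp4, a secreted growth factor (0.13), Ly75 (0.16) and Isl1 (0.18), and nearest to Isl1 were Barx1 (0.18), Alcam (0.25) and Myom3 (0.26). Nearest to Meox1 were Nkx2-3 (0.10), the stellate cell gene Lrat (0.12) and Insrr (0.13). Nearest to Tbx3 were Tmem132c (0.07), Col8a2 (0.08) and F2r (0.08), and to Nr2f1 Cmya5 (0.12), Fam71f2 (0.13) and Foxc1 (0.13). Gata4 had no near match, its first being Car12 (0.35), then Slfn4 (0.38) and Pf4 (0.42). Genes near Tcf21 were Ampd3 (0.05) and Pmp22 (0.06). Gata6 was nearest to Zfand1 (0.03), Cdk2ap2 (0.05) and Ethe1 (0.05), Wt1 to Nsun6 (0.04), Oxnad1 (0.04) and Trim25 (0.06), and Tbx18 to Gas6 (0.07), Mmp13 (0.08) and Gen1 (0.09).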

How the data were processed

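RNA was sequenced from 3 GFP and 3 Tomato libraries, for which an Illumina TruSeq kit was used on 150 ng of total RNA, per the labels' protocols. The authors deposited raw read counts per gene, with a column for both strands and 1 for each strand, per the file headers; the submitters' processing notes name Trim Galore 0.4.3, STAR 2.5.2b and GRCm38 without roles. The annotation release was not given in the sources used here. Of 49671 identifiers, 49412 matched GENCODE M21, which gave names and coordinates. The column for both strands was used because forward and reverse totals were almost the same (ratio 1.002 to 1.006), so the counts were read as strand-blind.

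GFP was compared with Tomato by edgeR 4.0.16 in R 4.3.3 (quasi-likelihood, robust, TMM scaling, filterByExpr, no block), two-sided, adjusted by Benjamini-Hochberg over 15608 genes with a threshold of 0.05. The common biological coefficient of variation was 0.158. The depth makes abundant genes precise, while a gene under 1 CPM rests on few reads. No library was a duplicate: within a fraction, chi-square divided by its degrees of freedom was 25.5 to 107. The fit was tested on simulated data. Alternatives were scaling by relative log expression, by upper quartiles or by library size alone, DESeq2 1.42.0, limma-voom (limma 3.58.1), dropping the filter or asking for 1 CPM in 3 libraries, a replicate block, offsets for length and GC content, both together, a single strand column and leaving out each library.

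The members and gene lists were chosen with earlier results of these data known. The text names all members, in each list of related genes up to 2 higher and 2 lower with the smallest adjusted p, genes within 10 kb of a member that could be tested, the 3 nearest profiles of each member, the top marker of each cell type and those at 0, Pdpn and Fabp4. Genes named beyond this are marked as chosen after their values were seen. Of the genes the rule gave, 3 are not reported here. Promoters are from RefSeq, build GRCm38.p6.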

Additional observations from a re-analysis of the deposited data

How the results depend on the processing

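The fold changes of the 10 genes moved by less than the spread between replicates in all 170 comparisons of gene and setting, Gata4 at -3.68 without GFP replicate 3 included, since its replicates spread widely. With each library left out in turn the members past the threshold were 2 to 3 higher and 3 to 4 lower, beside 833 to 2392 and 1380 to 2793 of all genes. The counts over all genes moved more. Scaled by library size alone, 1128 genes were higher and 3851 lower, and no neighbour within 10 kb of a member was higher (0). With length and GC offsets 1558 were lower and 1 neighbour was lower, as was 1 with a single strand column. Leaving out 1 library gave 833 to 2392 genes higher and 1380 to 2793 lower, 19 to 38 related genes higher and 8 to 13 lower, and 0 to 1 neighbours higher and 1 to 2 lower. The counts over all genes moved by over 1.5 times without GFP replicate 1 (920 higher, 1380 lower), GFP replicate 3 (1195 and 1551) and Tomato replicate 2 (833 and 1528). The replicate block gave 3137 higher, and 4235 with the offsets as well. Deviations from the group mean correlated between libraries of the same number at 0.379, 0.0867 and 0.318 (log2 CPM, prior count 0.5), against -0.367 to 0.0418 for unequal numbers. As 1 of them was under 0.1, the numbers were not taken to pair the libraries. With a prior count of 2, tried after the data were seen, the values were 0.403, 0.108 and 0.347, all above 0.1, so this decision rests on the prior count. With the block, 3137 of all genes were higher and 3256 lower, and members past the threshold were 3 higher and 4 lower. With offsets and block together, 4235 of all genes were higher and 2045 lower, and members were 4 higher and 5 lower. Nothing is read from these counts of members. Of the 22 cofactors tested, 8 were higher with the block and 11 with both, 2 were higher with library size scaling and 2 were lower with the offsets alone. Of 710 comparisons of other named genes and settings, 39 lost a call and 12 gained one, with no change of direction among called genes. Of 170 for single lists, 20 moved by more than 1.5 times. Genes under 1 CPM, Gata4 in 2 GFP libraries among them, are limited by depth.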
